A study of Mus musculus with 10 samples.

Results

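Interferon-stimulated genes, the genes that cells switch on when interferon reaches them, were followed in mouse natural killer cells (NKC) with and without the transcription factor Runx3. The 43 genes were chosen by name as well-known members of this response, and each was read from its brightest probe set that carries a single gene symbol. Such a probe set was found for 41 of the 43 genes, out of 18194 genes on the array. A gene was tested where this probe set reached a log2 signal of 5 in at least 2 of the 10 arrays, which held for 32 members among 9391 genes. Oas2, Ifit1, Mx1, Mx2, Rsad2, Eif2ak2, Ifi203, Ifi204 and Stat2 stayed out of the test, with log2 signals between 1.73 and 5.01. Isg15 and Ifi44 had no probe set named for them alone and have no value here.

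The RNA came from spleen NKC of ICR mice aged 6 weeks, enriched by negative selection and grown for 7 days with a cytokine that keeps NKC dividing. The groups were Runx3 -/- (KO) NKC in mouse IL-15 (2 arrays), Runx3 +/+ (WT) NKC in mouse IL-15 (2 arrays), KO NKC in 1000 u/ml human IL-2 (3 arrays) and WT NKC in 1000 u/ml human IL-2 (3 arrays). By the labels each array held the NKC of its own mouse, either male or female. No promoter or Cre line is named that would limit the deletion to NKC, and all groups were cultured cells rather than NKC taken directly from the spleen. According to the study's methods, cells positive for the surface antigen DX5 were also sorted.

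Type I interferons act through a paired receptor, the kinases Jak1 and Tyk2 and a complex that holds Stat2 and Irf9 and binds a promoter motif called the interferon-stimulated response element (ISRE). Interferon gamma, made by NKC themselves, acts through the gamma-activated site (GAS) and through Irf1. The genes switched on include sensors and cutters of viral RNA, proteins that block viral entry, ubiquitin-like modifiers and large GTPases that attack vacuoles of intracellular parasites.

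Values are log2 signals that the authors computed with GC-RMA, a background and probe summary method for Affymetrix arrays. Before deposit the differences between numbered pairs of arrays had been removed, so the KO and the WT array of a pair always sum to the same value within a cytokine. Within a pair, therefore, a high KO value comes with a low WT value by construction, and each KO effect rests on the differences of 3 pairs in IL-2 and of 2 pairs in IL-15. Medians of the 10 arrays ran from 3.20 to 3.37, with 34.6% to 36.7% of probe sets at log2 5 or more. The brighter Runx3 probe set had means of 11.38 in KO and 12.48 in WT NKC in IL-15. Its arrays did not overlap there, as in 64.6% of all tested genes. In IL-2, where its arrays overlapped, the means were 11.07 in KO and 11.65 in WT NKC. This probe set was called in neither cytokine, and where its probes lie relative to the deletion was not tested. Precision is limited by having 2 or 3 arrays in a group.

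Promoters show what the members share beyond their names. RefSeq promoter windows (GRCm38.p6, from 250 bases before the start of a gene to a short stretch after it) were matched by symbol for 31 of the 41 members with a probe set. No window was matched for Oas2, Mx1, Mx2, Usp18, Dhx58, Zbp1, Parp9, Parp14, Ifi204 and Rtp4. The ISRE core, which is GAAA followed by any 2 bases and again GAAA and was read on either strand with overlapping matches allowed, was found in 17 of these 31 genes (54.8%), against 3.99% of the 27025 genes with a window. In Ifih1, Eif2ak2 and Ifitm3 the ISRE matches lay after the start of the gene. The GAS core TTCNNNGAA was found in 35.5% of the members with a window and in 9.55% of all genes, and in Bst2 and Ifitm3 it overlapped an ISRE match. The RUNX motif in any of its forms (TGTGGT, or else TGTGGC, or else TGCGGT, or else TGCGGC, on either strand) was found in 48.4% of the members and in 48.7% of all genes. The next lines print the stretch around the ISRE core, 5′ to 3′ on the strand of the gene and ending at or before its start, with the core matches in capitals. They are 4 members that rose in KO NKC in IL-2, then Ifitm2, which fell, and then 3 members that were not called, so that their letters can be set beside their values.
Oas1a, chr5:120907526-120907565, minus strand: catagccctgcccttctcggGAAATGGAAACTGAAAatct
Oas3, chr5:120777705-120777754, minus strand: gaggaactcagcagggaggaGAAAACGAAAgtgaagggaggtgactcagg
Igtp, chr11:58199502-58199551, plus strand: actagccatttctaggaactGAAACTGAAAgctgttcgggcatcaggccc
Irgm1, chr11:48871421-48871470, minus strand: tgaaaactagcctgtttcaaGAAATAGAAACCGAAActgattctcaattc
Ifitm2, chr7:140955978-140956027, minus strand: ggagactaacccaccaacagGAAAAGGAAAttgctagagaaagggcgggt
Gbp2, chr3:142620584-142620633, plus strand: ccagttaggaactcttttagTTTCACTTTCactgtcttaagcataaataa
Bst2, chr8:71537567-71537622, minus strand: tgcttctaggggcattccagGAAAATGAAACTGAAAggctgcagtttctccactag
Ifit3, chr19:34583353-34583436, plus strand: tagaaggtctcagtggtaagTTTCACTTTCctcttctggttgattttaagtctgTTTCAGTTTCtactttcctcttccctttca
In Gbp2 and Ifit3 the core is written as its reverse complement, since it lies on the other strand. Among tested members with a window, the ISRE core was found in 4 of 9 that rose, 2 of 3 that fell and 6 of 14 that were not called in KO versus WT NKC in IL-2. A match describes these letters and was not tested as a binding site.

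In IL-2, the question was which members depend on Runx3. A member was called, and is said to have risen or fallen, where limma gave an adjusted p below 0.05 and the groups differed 1.5-fold or more. Of the 32 tested members, 11 rose and 3 fell in KO NKC, while 19.7% of all 9391 tested genes were called (10.5% rose and 9.17% fell). The risen members were the RNA-sensing synthetases Oasl2, Oas3 and Oas1a, the nucleotide kinase Cmpk2, Ifit2, the nucleic acid sensor Zbp1, the GTPases Igtp and Irgm1, and Rtp4, Lgals3bp and Ifi35. The fallen members were the 3 entry-blocking IFITM genes. The median KO minus WT difference was 0.74 over the tested members and 0.11 over all tested genes, on the log2 scale, and 24 of 32 members had a positive difference, against 56.6% of all genes. Arrays of KO and WT did not overlap for 16 members that were higher and 5 that were lower in KO, as in 54.4% of all genes (31.1% higher and 23.2% lower). Oasl1, Oasl2 and Oas3 reached log2 5 in KO arrays and in no WT array, as 1.24% of all tested genes did. Having passed the brightness filter through the KO arrays, these 3 had to differ between the groups, and nothing is read from their calls. Of the 25 members that reached log2 5 in each of the 10 arrays, a choice made after seeing the data, 7 rose and 3 fell when genes held to the same limit were refitted, where 11.7% of all genes rose and 9.01% fell. Their median difference was 0.63, against 0.13 over all genes of that fit, and 17 of the 25 were positive, against 58.0%.

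**Figure D1:**
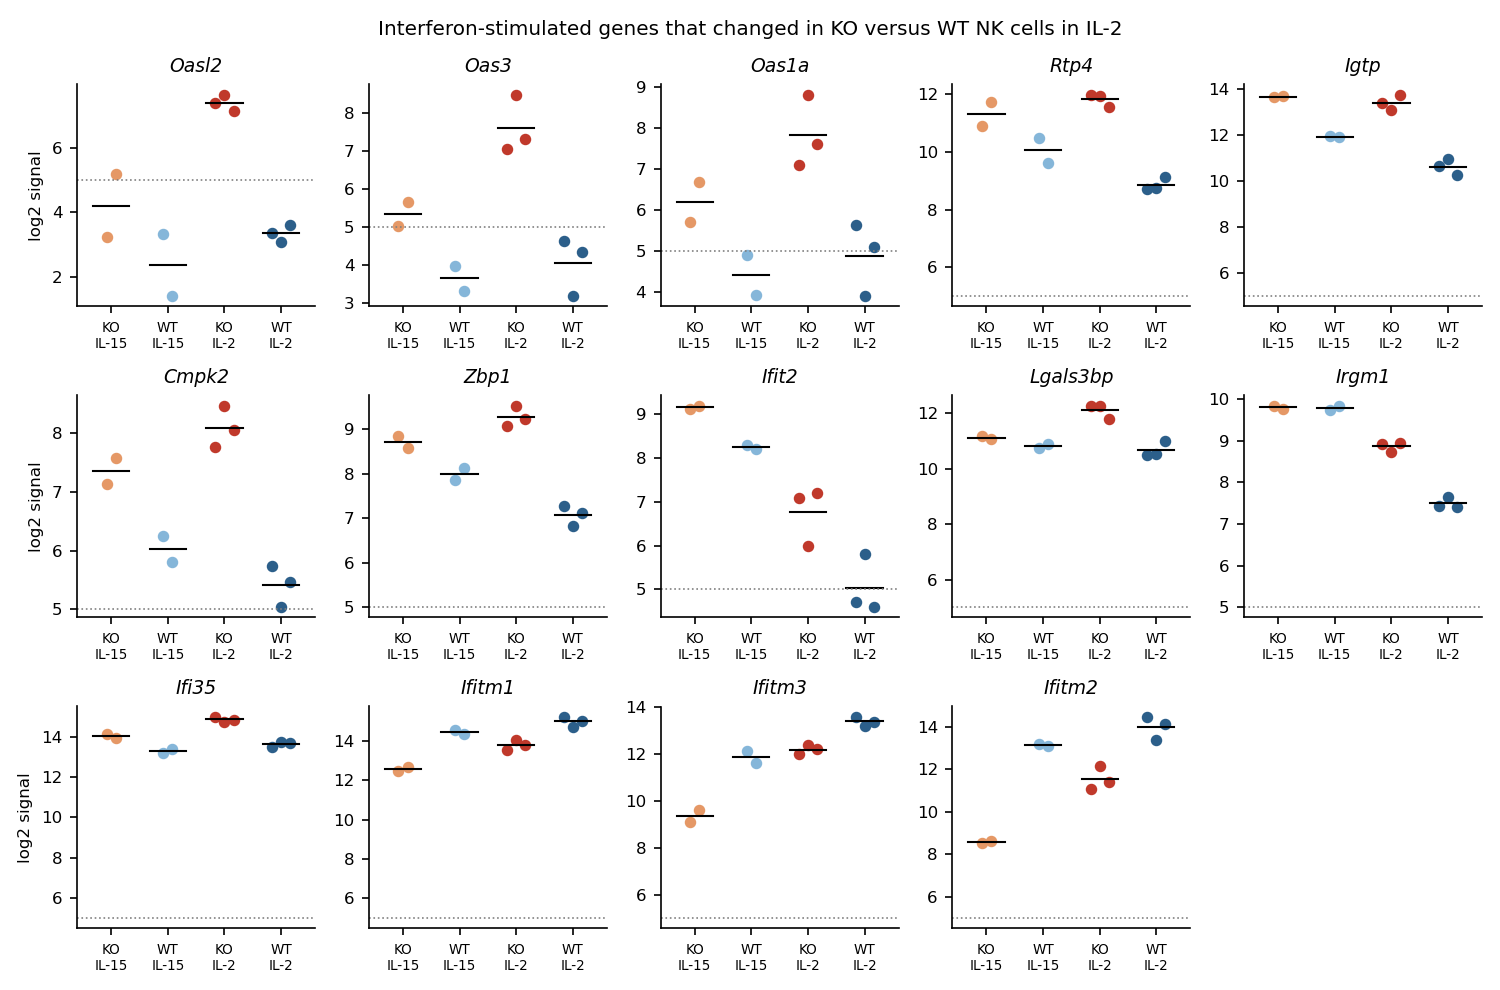
Log2 signal (vertical axis) of the 14 members called in KO versus WT NKC in IL-2, in each of the 10 arrays grouped by genotype and cytokine. Points are arrays, bars are group means and the dotted line marks log2 5, the level used as the brightness filter. In the panels of Ifitm1, Ifitm2 and Ifitm3 the KO arrays lie below the WT arrays in both cytokines.

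The oligoadenylate synthetase (OAS) family senses double-stranded RNA and, in its active members, makes the second messenger that switches on RNase L. Oasl2 had log2 signals of 7.40, 7.67 and 7.14 in KO arrays in IL-2, against 3.35, 3.08 and 3.61 in WT arrays. Oas3 had 7.03, 8.47 and 7.31 in KO arrays, against 4.62, 3.19 and 4.35 in WT arrays. For both genes every WT array stayed under the brightness level, and the KO mean set against log2 5 gives at least 5.29-fold for Oasl2 and at least 6.07-fold for Oas3, as a description, since the KO arrays alone took them into the test. Oas1a had 7.08, 8.81 and 7.60 in KO arrays, against 5.61, 3.89 and 5.09 in WT arrays, at least 7.12-fold higher (adjusted p = 0.0261). Oasl1, an OAS-like protein without synthetase activity, was not called, since its difference of 2.08 ± 2.70 (SD, 3 pairs) came mostly from pair 2. In that pair it measured 7.75 in the KO array and 2.55 in the WT array, while the other pairs differed by 0.46 and 0.58. The call of Oasl2 was lost without either array of IL-2 pair 1 or pair 2 (adjusted p up to 0.0715), and that of Oas1a without any 1 of the IL-2 arrays (up to 0.0784). All tested OAS members sit on chromosome 5, and near-identical OAS1 copies may share probes.

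Among the IFIT genes, whose products bind foreign RNA ends, Ifit2 was called and Ifit3 was not. Ifit2 had log2 signals of 7.08, 5.99 and 7.21 in KO arrays in IL-2, against 4.72, 5.81 and 4.60 in WT arrays, a rise of 1.72 ± 1.34 (adjusted p = 0.0485). Its groups did not overlap, but the KO and WT arrays of pair 2 were only 0.17 apart. Leaving out any 1 array other than those of IL-2 pair 2 took the call away (adjusted p up to 0.226). Ifit3 stayed between 5.33 and 5.81 in all 10 arrays and had a KO minus WT difference of 0.17 ± 0.23 in IL-2. Both genes lie on chromosome 19.

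Antiviral effectors other than these moved less uniformly. Cmpk2, a mitochondrial nucleotide kinase, had 7.76, 8.47 and 8.05 in KO arrays in IL-2, against 5.74, 5.04 and 5.46 in WT arrays, a 6.41-fold rise (adjusted p = 0.00545). Cmpk2 was higher in the KO array of each pair, by 2.02, 3.43 and 2.59. Bst2, which tethers budding virus particles to the cell, had 9.61, 9.46 and 9.96 in KO arrays, against 9.83, 9.99 and 9.49 in WT arrays, and the groups overlapped. Isg20, an RNA exonuclease, differed by -1.02 ± 1.24 and Samhd1, which degrades nucleotides needed by viruses, by -0.49 ± 0.28, and neither was called. A further bright probe set of Samhd1 differed by 0.98, in the opposite direction, so its direction depends on the probe set.

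Genes for the ISG15 pathway showed no call. Usp18, the protease that removes ISG15 and dampens receptor signalling, had 6.98, 8.62 and 6.79 in KO arrays in IL-2, against 7.92, 6.28 and 8.10 in WT arrays. Its difference was positive in pair 2 and negative in the others, with a mean of 0.03 ± 2.01. Herc6, the mouse ISG15 ligase, differed by 0.72 ± 0.66, while its other bright probe set differed by -0.84.

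Of the sensors and double-stranded RNA enzymes, Zbp1, which recognises left-handed nucleic acid and can start necroptosis, was the called member. It had 9.08, 9.53 and 9.23 in KO arrays in IL-2, against 7.27, 6.82 and 7.12 in WT arrays, a 4.62-fold rise (adjusted p = 0.00544). A further Zbp1 probe set differed by 1.38 in the same direction. Dhx58, the regulator LGP2 of RNA sensing, differed by 1.31 ± 1.25 (adjusted p = 0.0963), the RNA-editing enzyme Adar by 0.87 ± 0.49 (adjusted p = 0.0658) and the RNA sensor Ifih1 by -0.51 ± 1.19 (adjusted p = 0.501). These 3 differences were not called.

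The IFITM genes encode small membrane proteins that stop enveloped viruses from fusing with the cell, and all of them fell in KO NKC in IL-2. Ifitm2 had log2 signals of 11.07, 12.16 and 11.40 in KO arrays, against 14.49, 13.40 and 14.16 in WT arrays, a difference of -2.47 ± 1.12 or 5.56-fold lower (adjusted p = 0.0106). Ifitm3 had 11.98, 12.37 and 12.21 in KO arrays, against 13.59, 13.20 and 13.36 in WT arrays (2.29-fold lower, adjusted p = 0.0354). Ifitm1 had 13.54, 14.05 and 13.76 in KO arrays, against 15.22, 14.71 and 14.99 in WT arrays (2.28-fold lower, adjusted p = 0.0311). No KO array reached a WT array for any of the 3 genes. They lie together on chromosome 7 and are close paralogs, so that cross-reading between their probes cannot be told apart from a shared fall. When each of the 10 arrays was left out in turn, the call was lost in 10 fits for Ifitm3, 8 for Ifitm1 and 2 for Ifitm2, with the direction kept (adjusted p up to 0.165, 0.147 and 0.0667). The arrays whose removal took the call were those of IL-2 pair 1 for Ifitm2, and all but those of IL-2 pair 2 for Ifitm1. With no brightness filter, 0 of the 3 were called in IL-2.

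The interferon-inducible GTPases guard the cytoplasm against pathogens enclosed in vacuoles. Igtp (Irgm3) had 13.39, 13.09 and 13.77 in KO arrays in IL-2, against 10.65, 10.95 and 10.27 in WT arrays, a 6.94-fold rise (adjusted p = 0.00377). Irgm1, a regulator of the same GTPases, had 8.93, 8.73 and 8.95 in KO arrays, against 7.44, 7.64 and 7.41 in WT arrays, a 2.59-fold rise (adjusted p = 0.0118). Both had every KO array above every WT array. Irgm1 lost its call without either array of IL-2 pair 1 (adjusted p up to 0.0716). The guanylate-binding proteins were not called, with 0.88 ± 0.48 for Gbp2 (adjusted p = 0.0674) and 0.13 ± 0.42 for Gbp3.

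The remaining members fell into a bright risen set and a set with no call. Rtp4, a chaperone-like protein, had 11.98, 11.94 and 11.54 in KO arrays in IL-2, against 8.71, 8.74 and 9.14 in WT arrays (7.75-fold, adjusted p = 0.00545). Ifi35, an interferon-induced leucine zipper protein, had 14.99, 14.74 and 14.81 in KO arrays, against 13.50, 13.75 and 13.67 in WT arrays (2.31-fold, adjusted p = 0.0196), and its other bright probe sets differed by 1.29 each. Lgals3bp, a secreted galectin-binding glycoprotein, had 12.29, 12.28 and 11.80 in KO arrays, against 10.52, 10.52 and 11.00 in WT arrays (2.71-fold, adjusted p = 0.0180). In these 3 genes the groups did not overlap. Ifi35 and Lgals3bp lost their calls without either array of IL-2 pair 1 or pair 2 (adjusted p up to 0.103 and 0.102). Trim30a differed by 0.76 ± 0.75 and Xaf1 by 0.63 ± 0.72. The ADP-ribosylation genes were not called, with -0.40 ± 0.35 for Parp9, 0.09 ± 0.22 for Parp14 and 0.33 ± 0.41 for their ubiquitin ligase partner Dtx3l.

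Ifi202b, a mouse p200 protein that binds DNA in the cytoplasm, had the widest spread of any tested member. It had log2 signals of 8.38, 10.73 and 15.62 in KO arrays in IL-2, against 14.39, 12.04 and 7.15 in WT arrays. The pair differences were thus -6.00, -1.32 and 8.46, with a mean of 0.38 ± 7.38, and only 2 of the 9391 tested genes, Ifi202b included, had an SD this high. In IL-15 it had 4.94 and 5.09 in KO arrays, against 5.02 and 4.86 in WT arrays. In IL-2 the high values stood in KO array 3 and in WT arrays 1 and 2, and the groups overlapped.

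**Figure D2:**
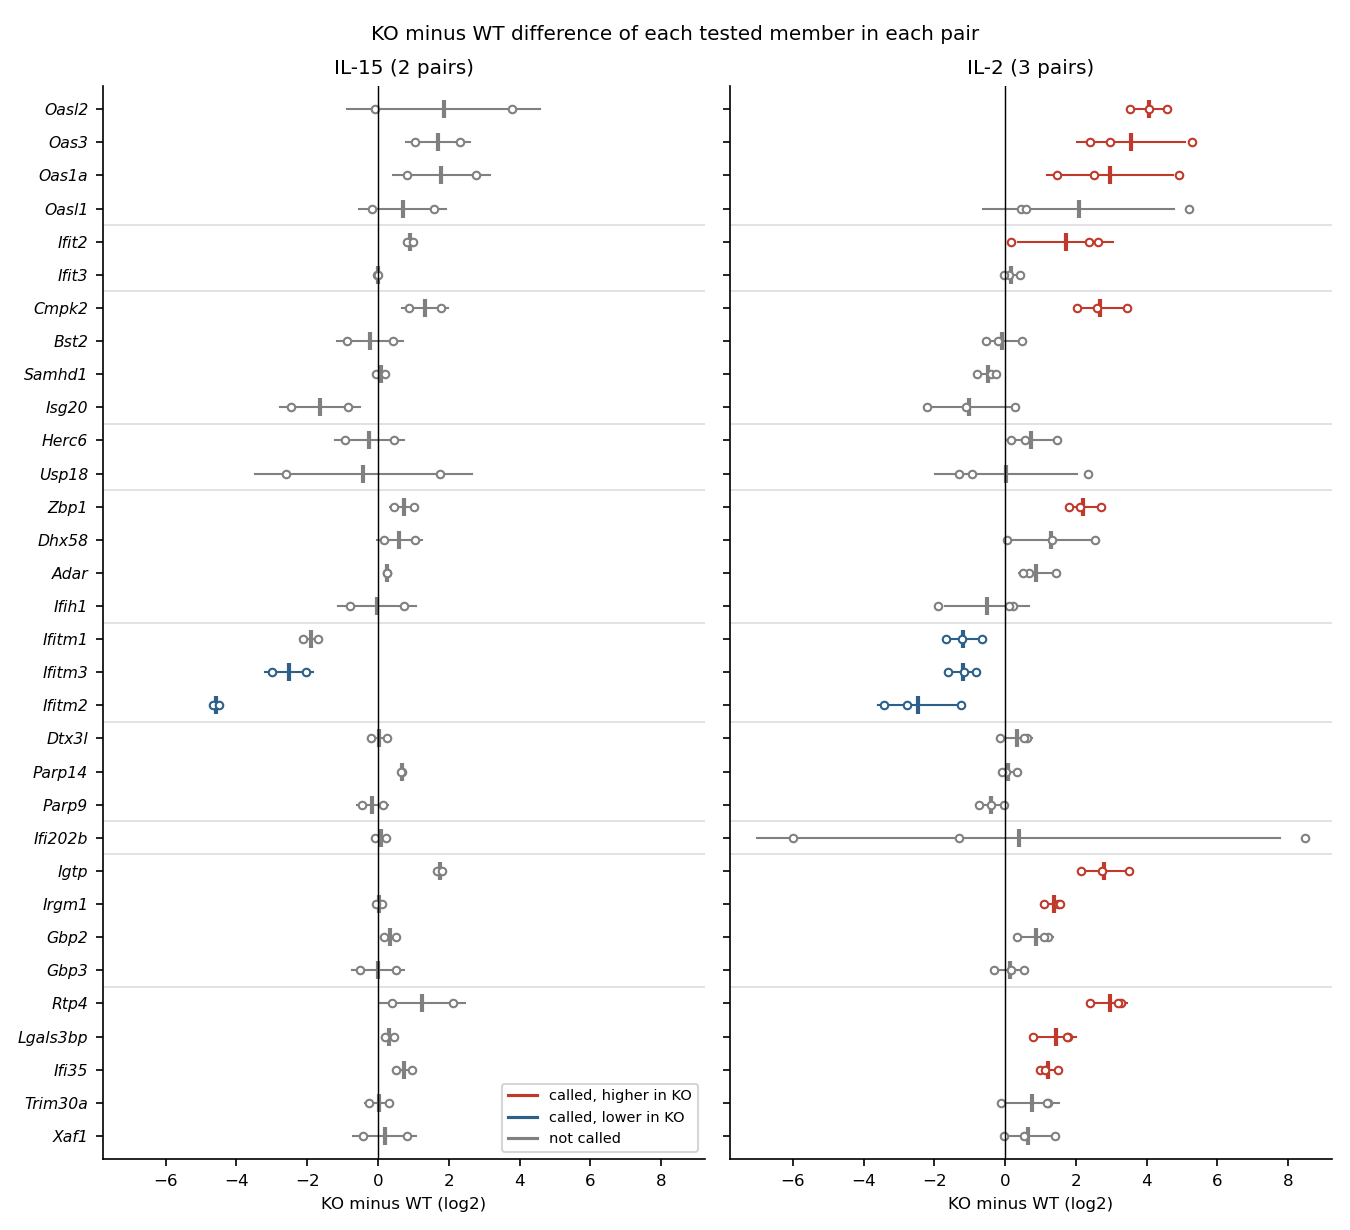
KO minus WT difference (log2, horizontal axis) of each of the 32 tested members in IL-15 (left) and IL-2 (right). Open points are pairs, the tick is their mean and the line the mean ± SD over 2 pairs in IL-15 and 3 pairs in IL-2, with colour marking called members and grey lines separating functional groups. The IFITM genes lie left of 0 in both panels, and the points of Ifi202b in IL-2 spread from -6.00 to 8.46.

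In IL-15, the same comparison called fewer genes over the whole array. Of the 32 tested members 0 rose and 2 fell, while 0.458% of all tested genes rose and 0.841% fell (limma, 1.3% in all, from 2 pairs). At an unadjusted p under 0.05 and the same fold, 5 members were higher and 4 lower, where 13.5% of all genes were counted. Ifitm2 fell, with 8.54 and 8.63 in KO arrays, against 13.21 and 13.12 in WT arrays, 23.9-fold lower (adjusted p = 0.0165). Ifitm3 fell too, with 9.11 and 9.60 in KO arrays, against 12.11 and 11.62 in WT arrays, 5.70-fold lower (adjusted p = 0.0363). Ifitm1 had 12.45 and 12.66 in KO arrays, against 14.56 and 14.35 in WT arrays, and its difference of -1.90 ± 0.30 (SD, 2 pairs) missed the threshold (adjusted p = 0.0629). The groups did not overlap for any of the 3 genes, as in 64.6% of all tested genes in IL-15 (32.9% lower in KO). In IL-15 the call of Ifitm2 was lost without any 1 of the IL-15 arrays or WT array 1 in IL-2 (adjusted p up to 0.217), and that of Ifitm3 without any 1 of the 10 arrays (up to 0.418).

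All 11 members that rose in IL-2 had a positive mean difference in IL-15, and 0 of them passed the test there. They include Oasl2 and Oas3, which KO arrays alone took past the filter. Of all tested genes 67.8% had the same sign in both cytokines. The share among all genes that rose in IL-2 was not counted, so the shared sign is not read as particular to the members. Igtp had 13.65 and 13.71 in KO arrays, against 11.97 and 11.91 in WT arrays, a difference of 1.74 ± 0.09 (adjusted p = 0.10). Cmpk2 differed by 1.33 ± 0.64 (adjusted p = 0.222) and Rtp4 by 1.25 ± 1.22 (adjusted p = 0.302). The OAS genes were dim or near the brightness level in IL-15. Oas1a had 5.71 and 6.68 in KO arrays, against 4.89 and 3.92 in WT arrays (adjusted p = 0.417), and Oasl2 had 3.25 and 5.18 in KO arrays, against 3.33 and 1.39 in WT arrays. Irgm1 had 9.85 and 9.76 in KO arrays, against 9.74 and 9.83 in WT arrays, and these groups overlapped. Over the 32 members the median difference was 0.14, against -0.01 over all tested genes, and 22 were positive, against 49.1% of all genes. KO and WT arrays did not overlap for 13 members that were higher and 4 that were lower in KO, as in 64.6% of all genes (31.7% higher and 32.9% lower).

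Whether the KO effect differed between the cytokines was tested in the same fit. No member was called for this difference (limma, 0 of 32), and 0 of all 9391 tested genes were called (0%). At an unadjusted p under 0.05 it held for 7 members, against 11.8% of all genes, namely Irgm1, Zbp1, Ifitm2, Rtp4, Ifitm3, Lgals3bp and Cmpk2. The lowest adjusted p was 0.313, for Irgm1, whose KO effect was 0.02 in IL-15 and 1.37 in IL-2. In 28 of 32 members the signed effect in IL-15 lay below that in IL-2, as in 58.4% of all genes. This means a smaller rise for the risen members and a deeper fall for the IFITM genes. The risen members were chosen by their IL-2 difference, which favours a smaller one in IL-15, so nothing is read from their smaller rise. Sex-linked genes also differ between the cytokines, as given below. Averaged over both cytokines, 10 members rose and 3 fell, against 8.82% and 8.36% of all genes. The 10 include Oasl2 and Oas3, which KO arrays alone took past the filter, so nothing is read from their calls. Ifit2 was the member called in IL-2 that was not called for the mean effect (1.30, adjusted p = 0.0597). Across the 32 members the effects in the 2 cytokines, which come from separate mice, correlated at r = 0.88 (Pearson) and 0.90 (Spearman), against 0.65 and 0.54 across all tested genes. The sign was the same for 28 members (87.5%), against 67.8% of all genes. Genes are not independent replicates, members of a family may share probes, and all members share the same arrays, so these values are a description. They also include Oasl1, Oasl2 and Oas3, brought in by KO arrays alone.

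**Figure D3:**
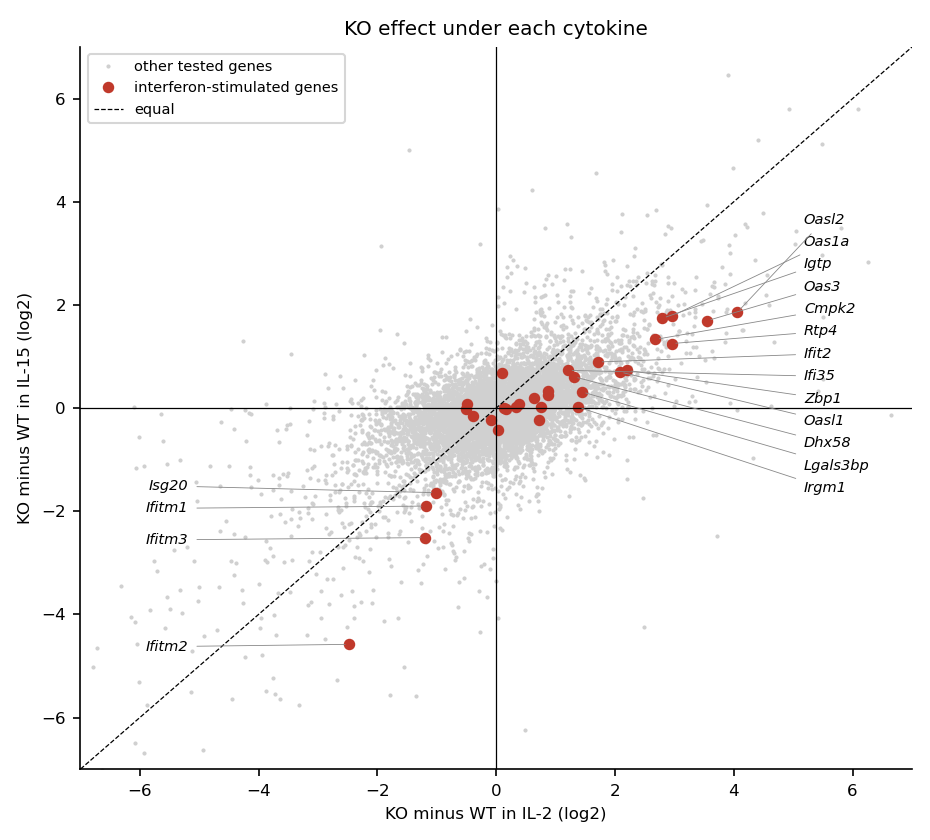
KO minus WT difference in IL-15 (log2, vertical axis) against that in IL-2 (log2, horizontal axis) for the 32 tested members (red) and the other tested genes (grey), each point the mean over 2 pairs in IL-15 and 3 pairs in IL-2. Of the 9391 genes, 16 lie beyond the axes at ±7, and the dashed line marks equal effects. The risen members lie below the line on the right, and the IFITM genes lie below it on the left. The risen members were chosen by their IL-2 difference, which favours this position.

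Members also differed between the cytokines within each genotype. A member was counted where the groups differed by at least 1.5-fold with no overlap of arrays. The removal of pair differences narrowed the spread within groups, so that these counts, and the limma calls without a block among the alternatives, are descriptions. In KO NKC 10 members were higher and 15 lower in IL-15 than in IL-2, where 51.4% of all genes were counted (26.2% higher and 25.2% lower). In WT NKC 15 members were higher and 5 lower, where 53.3% of all genes were counted (32.7% higher and 20.6% lower). The 5 lower members of WT NKC became 12 without WT array 2 in IL-2 and 10 without WT array 1 in IL-15. The sex-linked gene Xist had means of 14.56 in KO and 14.38 in WT NKC in IL-15, against 4.91 in KO and 5.10 in WT NKC in IL-2. Eif2s3y, on the Y chromosome, had 2.36 in KO and 2.42 in WT NKC in IL-15, against 7.88 in KO and 8.60 in WT NKC in IL-2. Cytokine and the sex of the mice therefore cannot be told apart in these differences.

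Bst2 stood lower in IL-15 in both genotypes. It had 5.70 and 5.04 in KO arrays in IL-15, against 9.61, 9.46 and 9.96 in KO arrays in IL-2, and 5.27 and 5.92 in WT arrays in IL-15, against 9.83, 9.99 and 9.49 in WT arrays in IL-2. The differences were -4.31 in KO and -4.17 in WT NKC. Ifi202b differed by -6.56 in KO and -6.26 in WT NKC, at means close to the brightness level in IL-15. Among the IFITM genes the IL-15 minus IL-2 difference was -1.23 in KO and -0.52 in WT NKC for Ifitm1, where the WT value missed the rule by size. It was -2.95 in KO and -0.85 in WT NKC for Ifitm2, and -2.84 in KO and -1.52 in WT NKC for Ifitm3. Among the OAS genes Oas1a differed by -1.64 in KO and -0.46 in WT NKC. Nothing is read from Oasl1, Oasl2 and Oas3 here, since KO arrays alone took them past the filter, and for Oasl1 those in IL-2.

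The GTPases, Ifit2, the ADP-ribosylation genes and Samhd1 were higher in IL-15. Ifit2 had 9.10 and 9.19 in KO arrays in IL-15, against 7.08, 5.99 and 7.21 in IL-2, and 8.29 and 8.21 in WT arrays in IL-15, against 4.72, 5.81 and 4.60 in IL-2. Gbp2 was higher by 2.17 in KO and 2.71 in WT NKC, Gbp3 by 1.41 in KO and 1.54 in WT NKC, and Irgm1 by 0.94 in KO and 2.29 in WT NKC. Igtp was higher by 1.32 in WT NKC and by 0.26 in KO NKC, where the size missed the rule. Parp14 was higher by 1.92 in KO and 1.35 in WT NKC, and Dtx3l by 1.16 in KO and 1.47 in WT NKC. Parp9 was higher by 1.10 in KO and 0.86 in WT NKC, and Samhd1 by 1.99 in KO and 1.42 in WT NKC. Among the sensors Ifih1 was higher by 1.71 in KO and 1.23 in WT NKC. Trim30a was higher by 1.31 in KO and 2.05 in WT NKC.

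**Figure D4:**
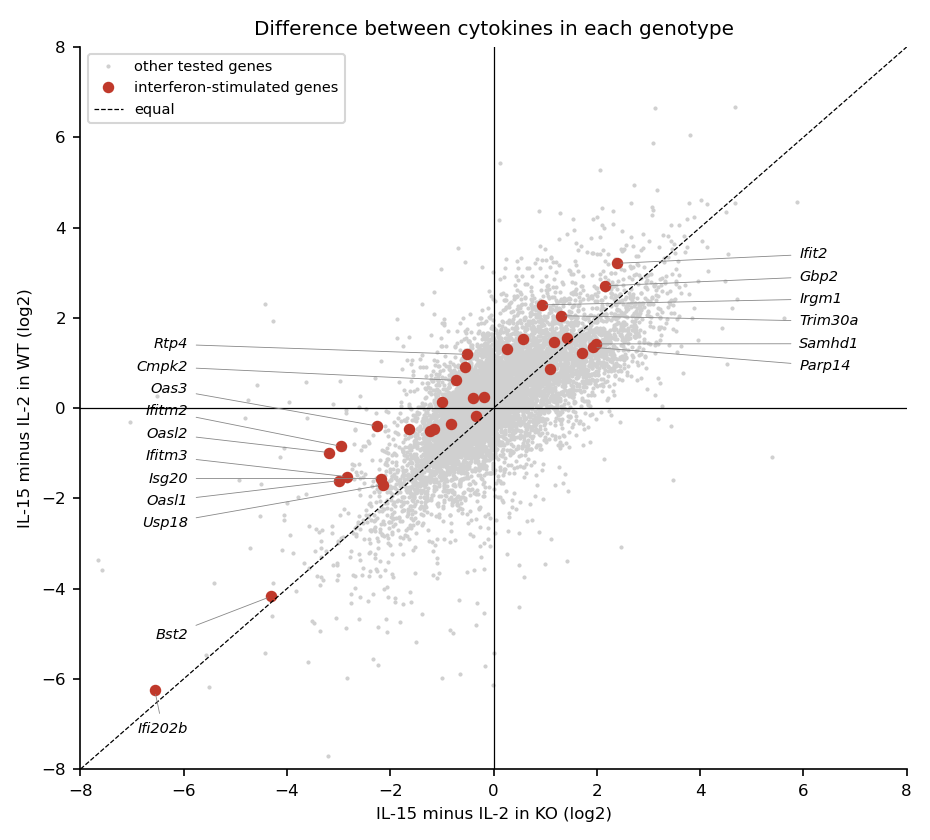
Difference between IL-15 and IL-2 in WT NKC (log2, vertical axis) against that in KO NKC (log2, horizontal axis) for the 32 tested members (red) and the other tested genes (grey), each point a difference of group means. Of the 9391 genes, 3 lie beyond the axes at ±8, and the dashed line marks equal differences. Bst2 and Ifi202b lie at the lower left, and Ifit2 and Gbp2 at the upper right.

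The upstream part of the pathway was examined with lists of ligands, receptors, transducers and regulators. Each count below is to be set beside all tested genes, of which 10.5% rose and 9.17% fell in IL-2. With so few genes in a list, nothing is read from the counts. Of 7 ligands 1 was bright enough to test: Ifng, the interferon that NKC secrete, had 11.85, 11.82 and 11.48 in KO arrays in IL-2, against 9.86, 9.89 and 10.23 in WT arrays, a rise of 1.73 ± 0.41 (adjusted p = 0.0150). The type I interferon genes of the list with a probe set were too dim to test. Of 4 tested receptor chains Ifnar2 (0.94 ± 0.34) and Il10rb (1.22 ± 0.44) rose in IL-2. Of 4 tested transducers 0 were called in IL-2, with Irf9 at 1.09 ± 0.61 (adjusted p = 0.0529). Among 6 tested regulatory factors Irf1, an activator induced by interferon gamma, rose (1.42 ± 0.47) and Irf8 fell (-2.48 ± 0.78). Irf7, which amplifies type I interferon, differed by 1.39 ± 0.97 (adjusted p = 0.0544). The adaptors Myd88 (1.15 ± 0.60) and Sting1 (1.19 ± 0.23) rose among 8 tested sensors and adaptors. The phosphatase Ptpn6 (1.46 ± 0.75) rose among 6 tested negative regulators. In IL-15 none of these genes was called, where 1.3% of all tested genes were. Ifnar2 (-0.42 ± 0.13) stood in the opposite direction there with no overlap of arrays, as 64.6% of all genes did not overlap (32.9% lower). The IL-15 differences were 1.16 ± 0.90 for Ifng, 0.22 ± 0.48 for Il10rb, 0.52 ± 0.07 for Irf1 and -2.55 ± 0.75 for Irf8 (adjusted p = 0.0607). They were 0.71 ± 0.31 for Myd88, 0.22 ± 0.28 for Sting1 and 0.56 ± 0.81 for Ptpn6.

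A further list of 56 interferon-stimulated genes outside the members had 36 tested genes, of which 12 rose and 0 fell in KO NKC in IL-2, against 10.5% and 9.17% of all tested genes. The 6 with the highest rises were the GTPase Iigp1 (3.94 ± 1.89, at least 5.36-fold), Parp12 (3.85 ± 0.28), the class I transactivator Nlrc5 (2.77 ± 0.73), the chemokine Cxcl10 (2.70 ± 1.24, at least 4.93-fold), Ms4a4c (2.66 ± 0.55) and the GTPase Irgm2 (2.15 ± 0.58). In IL-15, 1 of the 36 rose and 0 fell, namely Nlrc5 (2.80 ± 0.69, adjusted p = 0.0426), against 0.458% and 0.841% of all tested genes. The median KO minus WT difference of this list was 0.89 in IL-2 and 0.35 in IL-15, against 0.11 and -0.01 over all tested genes. The list was chosen with earlier results of these data known, so these values are a description and no separate test. How many genes of this list passed the brightness filter through KO arrays alone was not determined, and such genes were not left out. They would have to differ between the groups, so nothing is read from the count of risen genes or from the medians. Iigp1 and Cxcl10 had WT means under log2 5 in IL-2.

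Markers of other cells that a spleen culture could hold were read beside these results. Of the NKC markers 10 of 11 were tested, Ncr1 and Tbx21 rose and Prf1 fell in KO NKC in IL-2, and Itga2, the gene of the DX5 antigen, stayed under log2 5 in all arrays. The summed NKC signal on the linear scale was 121000 to 124000 in KO and 157000 to 162000 in WT arrays in IL-15. In IL-2 it was 116000 to 136000 in KO and 141000 to 169000 in WT arrays, with no overlap in either cytokine. The brightest genes weigh most in such a sum. In IL-2, Prf1 had means of 13.12 in KO and 14.85 in WT NKC, and Gzmb 15.56 and 15.69. Of the 10 tested NKC markers 5 had a positive difference in IL-2 and 3 in IL-15, so the sum does not stand for the list as a whole. Of the B cell markers 2 of 6 were tested, Blk (at least 8.60-fold) and Ighm (2.26 ± 0.16), and both rose in IL-2. Blk reached log2 5 in the KO arrays in IL-2 alone, so it had to differ and nothing is read from its call. Ms4a1, Cd79a, Cd79b and Pax5 stayed under log2 5 in all arrays. The summed B cell signal on the linear scale was 2290 to 2320 in KO and 435 to 476 in WT arrays in IL-2. In the conventional dendritic cell list (5 of 7 tested) Cd74 and H2-Aa rose, and Flt3 and Xcr1 stayed under log2 5. Cd74 reached log2 5 in KO arrays alone, so nothing is read from its call. The list summed to 574 to 2350 in KO and 214 to 815 in WT arrays in IL-2. Markers of plasmacytoid dendritic cells, a strong source of type I interferon, summed to 570 to 681 in KO and 835 to 1140 in WT arrays in IL-2, with Siglech under log2 5 in all arrays. Of the 7 plasmacytoid markers 3 were tested and Tcf4 fell. In IL-2, 1 of the 3 had a positive difference, Klk1 (0.56 ± 0.53, not called). Of the macrophage list 5 of 8 were tested and Cd14 fell in IL-2, with Fcgr1, C1qa and C1qb under log2 5. The list summed to 411 to 1540 in KO and 271 to 1550 in WT arrays in IL-2. Of its 5 tested genes 3 had a positive difference in IL-2 and 4 in IL-15. Lyz2 differed by 2.90 ± 3.15 in IL-2 and 3.54 ± 2.18 in IL-15, and was not called. Of the T cell list 3 of 7 were tested and 0 called. Its sum was 339 to 852 in KO and 406 to 1030 in WT arrays in IL-2. In IL-15, where 0 markers of these lists were called, the B cell sum was 1730 to 3270 in KO and 911 to 1710 in WT arrays. The part of these cells in the members' values was not tested, and fewer cells of a type and less RNA per cell cannot be told apart in bulk RNA.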

How the data were processed

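RNA of the 10 NKC samples was hybridised to Affymetrix mouse arrays, which the study's methods call A430.2. The deposited values hold 45101 probe sets. The deposited log2 values are GC-RMA signals, which the authors obtained with Partek software, whose version is not given in the sources used here. A step the sources do not describe is visible in them: within a cytokine, KO and WT arrays of the same number have identical sums for every probe set (largest difference 0.00014). The pair was therefore fitted as a block. This pairing comes from the identity of the sums, not from the labels.

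Probe sets with a single symbol (34958 of 45101) were named through the platform gene table, and 932 with several symbols were set aside. The brightest probe set stood for each gene. limma 3.58.1 (lmFit, eBayes) in R 4.3.3 was fitted to all 10 arrays and 9391 genes with 3 residual degrees of freedom, and p-values were adjusted by Benjamini-Hochberg over all genes. Changes are KO minus WT as mean ± SD over pairs. A group mean under log2 5 was treated as not measured above background, and the fold is then given as a lower limit against log2 5. Promoter motifs were searched with Python 3.11.15. Alternatives were fits without the block, centred or quantile-normalised arrays, no brightness filter, averaged probe sets, no minimum fold, unadjusted p, a variance trend leaving out each array and, added after seeing the data, stricter brightness filters.

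The members, lists and tests were chosen with earlier results of these data known. Members called in any KO comparison are given array by array, as are Oasl1, Bst2, Usp18 and Ifi202b, chosen after their values were seen, and the others by difference or range. By the labels each sample came from its own mouse, and columns of other series numbered 0.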

Additional observations from a re-analysis of the deposited data

Results flagged for a closer look

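Cmpk2 stood lower in IL-15 than in IL-2 in KO NKC and higher in IL-15 than in IL-2 in WT NKC, with no overlap of arrays in either genotype. At 1.5-fold and no overlap, 51.4% of all genes were counted in KO and 53.3% in WT NKC, and the removal of pair differences narrowed the spread. The closest WT arrays had 5.80 in IL-15 and 5.74 in IL-2. The IL-15 minus IL-2 difference of Cmpk2 was -0.73 in KO and 0.61 in WT NKC, so that KO minus WT was -1.35. The test of that difference gave an unadjusted p = 0.0452 and an adjusted p = 0.416 (limma), so it did not pass. Cmpk2 was among the members that rose in IL-2, which favours a negative value here. Sex-linked genes also differ between the cytokines, and their part in this value was not tested.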

How the results depend on the processing

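Of the 14 members called in IL-2, Cmpk2, Igtp, Rtp4 and Zbp1 kept their call in all 14 settings tried per gene (Oas3, brought in by the filter, is left aside), and no called member changed direction in any of them. Centring the arrays took the call from Ifit2 (adjusted p = 0.0543). With no replicate block, which leaves too many degrees of freedom after the removal of pair differences, 18 members were called in IL-2 (40.5% of all genes), 7 in IL-15 (4 higher and 3 lower, 14.1%), 17 for the mean effect (30.8%) and 6 for the difference between cytokines (0 higher and 6 lower, 12.3%). Between cytokines it called 22 members in KO (46.1%) and 17 in WT NKC (48%). With no filter on low values and 41 members tested, the counts were 6 in IL-2 (6 higher and 0 lower, 4.63% of all genes), 0 in IL-15 (0%) and 8 for the mean effect (3.53%). With the study's unadjusted p they were 9 in IL-15 (5 higher and 4 lower, 13.5% of all genes) and 7 for the difference between cytokines (0 higher and 7 lower, 11.8%). Leaving out 1 array in turn gave 5 to 13 called members in IL-2, 0 to 1 in IL-15, 7 to 13 for the mean effect, 0 to 0 for the difference between cytokines, 25 to 27 in KO NKC between cytokines and 20 to 26 in WT NKC. Under the block the partner of an array left out carries no information on genotype. Without either array of IL-2 pair 1 the IL-2 count was 5 (5.69% of all genes), and without either array of pair 2 it was 9 (11% to 11.1%). Without either array of IL-15 pair 1 the mean effect had 7 calls (3.93% to 3.98%), and without either of pair 2 it had 8 (6.42% to 6.44%). Without any 1 of the 10 arrays the IL-15 count was 0 or 1 (0% to 1.14%), and with 1 IL-15 pair left that pair is assumed to vary like the others. Quantile normalisation kept the member counts of the KO comparisons at 14 and 2, but over all genes it gave 41 higher and 46 lower in IL-15, against 43 and 79 as deposited. Genes with a mean of log2 5 or more over the 10 arrays, a limit added after seeing the data, held 30 members. Of these 10 rose, Oas3 included, and 3 fell in IL-2 (10.9% and 8.8% of all genes). All other alternatives stayed within 1.5 times the counts given.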

Other observations

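The pair with the highest KO minus WT difference was counted for the members and for all tested genes, as a description. In IL-2 the highest signed KO minus WT difference lay in pair 2 for 16 of 32 members, against 22.9% of all tested genes, and the members' medians were 0.57, 1.04 and 0.52 in pairs 1, 2 and 3. Over all tested genes the medians of those pairs were 0.29, 0.01 and 0.03. In IL-15 it lay in pair 2 for 24 of 32 members, against 46.0% of all genes, with members' medians of 0.13 in pair 1 and 0.45 in pair 2. Pair numbers of the cytokines come from different mice. The members share the same arrays, are not replicates and include Oasl1, Oasl2 and Oas3, which KO arrays alone took past the filter. Single pairs therefore cannot show that members differ from other genes, and the cause was not tested. The median SD over pairs was 0.54 in members and 0.54 in all tested genes in IL-2, and 0.41 and 0.31 in IL-15. The highest SD in IL-15 was that of Usp18 (3.07) and the lowest that of Adar (0.00385).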
